A study of Mus musculus with 7 samples.

Results

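Cyclic AMP signalling genes were followed in TRAMP-C1 cells, a mouse prostate tumour line of the strain C57BL/6-TgN(TRAMP)8247Ng, after introduction of the PAX8-NFE2L2 fusion. The members were chosen by gene symbol, with earlier results of these data known. The symbols cover numbered adenylyl cyclases (Adcy), phosphodiesterases (Pde), protein kinase A subunits (Prkaca, Prkacb and Prkar) and numbered A-kinase anchoring proteins (Akap). Added to these are the receptor genes Adcyap1r1 and Gpbar1, the G protein genes Gnas and Gnai1 to Gnai3, and Creb1 and Crem. They are 63 of 46603 gene rows, on 20 chromosomes. By role they fall into 6 receptors and G proteins, 10 adenylyl cyclases, 8 cAMP-specific phosphodiesterases, 7 phosphodiesterases that take both cAMP and cGMP, 8 genes of the cGMP phosphodiesterases (including the Pde6 subunits that are not catalytic), 6 protein kinase A subunits, 16 anchoring proteins and 2 genes of the CREB family. Of these, 52 passed the filter on low counts and were tested. The other 11 did not, and 4 of them (Adcy2, Pde6c, Akap14 and Akap4) had 0 reads in every library, which allows a level of up to 0.0501 to 0.112 CPM, reads scaled to library size, depending on the library.

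Cyclic AMP is made from ATP by adenylyl cyclases, which receptors switch on through the stimulatory G protein and hold back through inhibitory G proteins. Phosphodiesterases break it down, and transporters can carry it out of the cell. It acts mainly by releasing the catalytic subunits of protein kinase A from their regulatory subunits, at places in the cell set by anchoring proteins, and active kinase phosphorylates CREB, which binds cAMP response elements in DNA. In prostate cells raised cAMP is known as a trigger of neuroendocrine-like differentiation.

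The groups compared were 3 libraries of cells transduced with a lentivirus that carried the fusion, 3 of cells transduced with the matching empty vector, and 1 library labelled WT, whose label gives no vector. Fusion and empty vector cells were exposed to the lentivirus for 12 hours, and the medium was then renewed for 24 hours. No such times are given for the WT library. All 7 libraries come from the same line, so all carry the TRAMP transgene. The RNA was polyadenylated RNA, taken from a transduced population, as the protocol describes no selection of clones. Whether replicates are separate cultures is not stated in the labels, and the p-values then measure only the spread between these libraries, which may be technical. PAX8 directs thyroid and kidney development as a transcription factor, and NFE2L2 encodes NRF2, which turns on antioxidant genes. Pax8 reads, which check the labels, stood at 6.4, 8.53 and 5.57 CPM in fusion replicates 1, 2 and 3, against 0.0334, 0.0358 and 0.217 CPM in the empty vector replicates and 0.0401 CPM in the WT library. Nfe2l2 reads lay at 123 to 145 CPM in fusion libraries, 111 to 125 CPM in empty vector libraries and 120 CPM in the WT library. Library totals ran between 26368182 reads in genes (fusion replicate 3) and 59597170 (empty vector replicate 1). Replicates 1 and 2 and the WT library were sequenced on lanes 5 and 6, fusion replicate 3 on lane 2 and empty vector replicate 3 on lane 1. The labelled cell type is prostate epithelial, and some epithelial markers were low. Krt8 reached at most 1.9 CPM, Epcam reached at most 0.529 CPM in any library, and 4 of 10 markers stayed under 1 CPM throughout. Together the 10 markers summed to 117 to 155 CPM in fusion libraries, 92.9 to 112 in empty vector libraries and 157 in WT. Most of this sum thus came from markers other than Krt8, Epcam and those under 1 CPM. Fibroblast markers summed to 5380 to 9980 CPM in fusion libraries, 6170 to 10800 in empty vector libraries and 10900 in WT. Immune and endothelial markers summed to at most 3.46 and 0.942 CPM in any library.

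In fusion cells the receptor gene Gpbar1 and the phosphodiesterase gene Pde11a rose, and the receptor gene Adcyap1r1 and the cyclase gene Adcy8 fell, relative to empty vector cells. These 4 are the members past an adjusted p of 0.05 in edgeR's quasi-likelihood test with Benjamini-Hochberg adjustment over all 16731 tested genes. They are 7.69% of the tested members, beside 2.04% of all tested genes (1.69% higher and 0.353% lower). The members as a whole took no common direction: 28 were fitted higher and 24 lower, with a median log2 fold change of 0.08, beside 0.01 over all tested genes. The replicate numbers were taken to pair the libraries on a correlation check alone, as no label states a pairing. With the number as a block in the same test, 15 members were called, 11 higher and 4 lower. That is 28.8% of the tested members, beside 13.1% of all tested genes (7.63% higher and 5.5% lower). The libraries of both groups did not overlap for 19 members (12 higher, 7 lower), or 36.5% of those tested, beside 15.8% of all tested genes (9.15% higher and 6.66% lower). Since the members were chosen with earlier results of these data known, their shares may be raised by that choice.

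**Figure D1:**
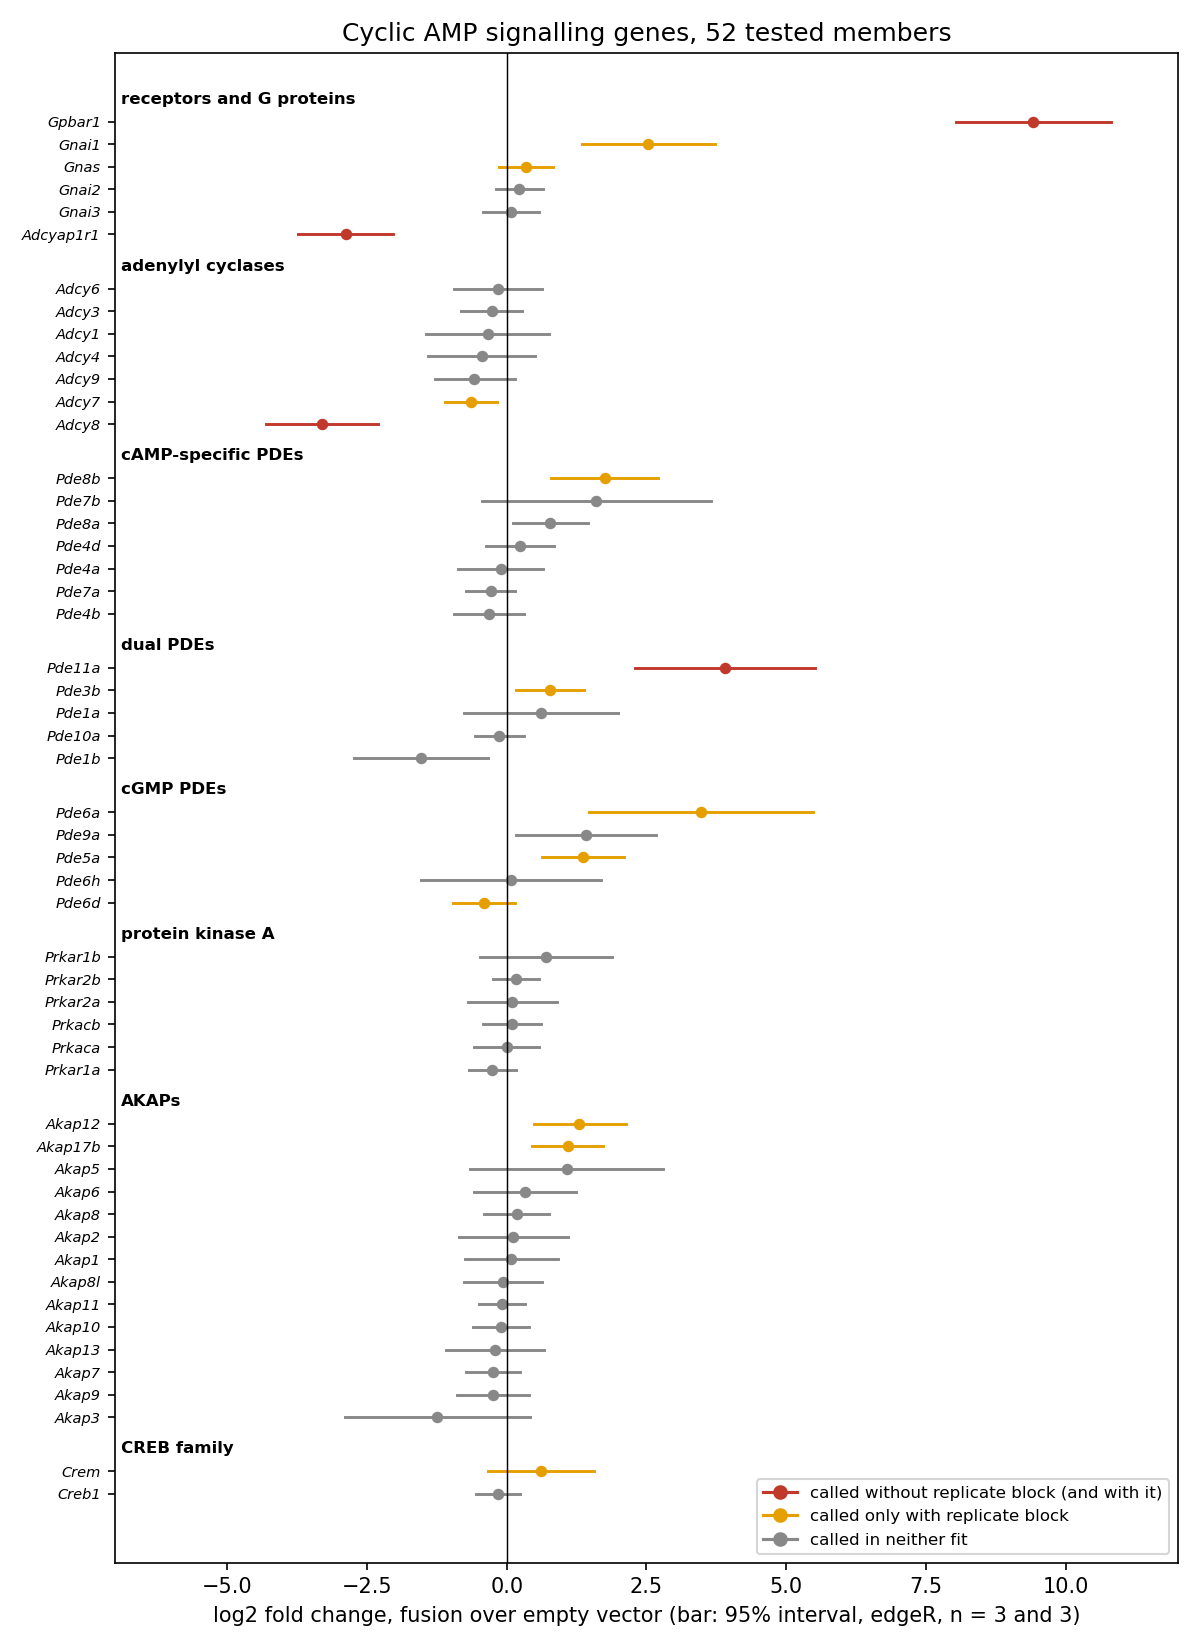
Log2 fold change of fusion over empty vector for the 52 tested members by role (x axis; bars are 95% intervals of the edgeR fit without a replicate block, n = 3 and 3). Red marks the 4 members called in that fit, of which Gpbar1 and Pde11a lie right of 0 and Adcyap1r1 and Adcy8 left of it; orange marks the 11 called only with the block.

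Gpbar1 encodes TGR5, a bile acid receptor that couples to the stimulatory G protein. Its gene (ENSMUSG00000064272.3) lies at chr1:74278550-74279624 of GRCm38, on the plus strand. It had 300, 304 and 190 reads in fusion replicates 1, 2 and 3, against 0, 1 and 0 reads in the empty vector replicates and 3 in the WT library. In CPM these are 5.72, 5.57 and 7.11 in fusion cells, against 0, 0.0179 and 0 in empty vector cells and 0.0601 in WT. Every fusion library thus held the transcript at a steady level, while the control libraries were at or next to 0, and the groups did not overlap. Pooled over libraries and scaled to their totals, the ratio of fusion to empty vector was 917, with a 95% counting interval of 164 to 36300, since the empty vector side rests on 1 read. The test gave an adjusted p of 0.0007 (log2 fold change 9.42, SE 0.6, n = 3 and 3, a fitted value and no bound), and the call held in all 6 fits that left out 1 library (adjusted p 0.00097 to 0.0048).

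Adcyap1r1 encodes PAC1, the main receptor of the neuropeptide PACAP, which also couples to the stimulatory G protein. Its gene (ENSMUSG00000029778.11) lies at chr6:55451978-55501451 of GRCm38, on the plus strand. Its level was 5.34, 4.94 and 9.54 CPM in fusion replicates, against 55.6, 30 and 59.9 CPM in empty vector replicates and 100 CPM in the WT library. The groups did not overlap, and WT stood above all others. The means were 6.61 ± 2.55 CPM in fusion cells and 48.5 ± 16.1 CPM in empty vector cells (SD, n = 3 each), a log2 fold change of -2.88 (SE 0.37, edgeR adjusted p = 0.0075). The call held in all 6 fits that left out 1 library (adjusted p 0.0059 to 0.04). Both receptors signal through the same G protein and moved in opposite directions; per kilobase of exon, the level of Gpbar1 in fusion cells (5.7 CPM per kb) was below that of Adcyap1r1 in empty vector cells (7.35).

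**Figure D2:**
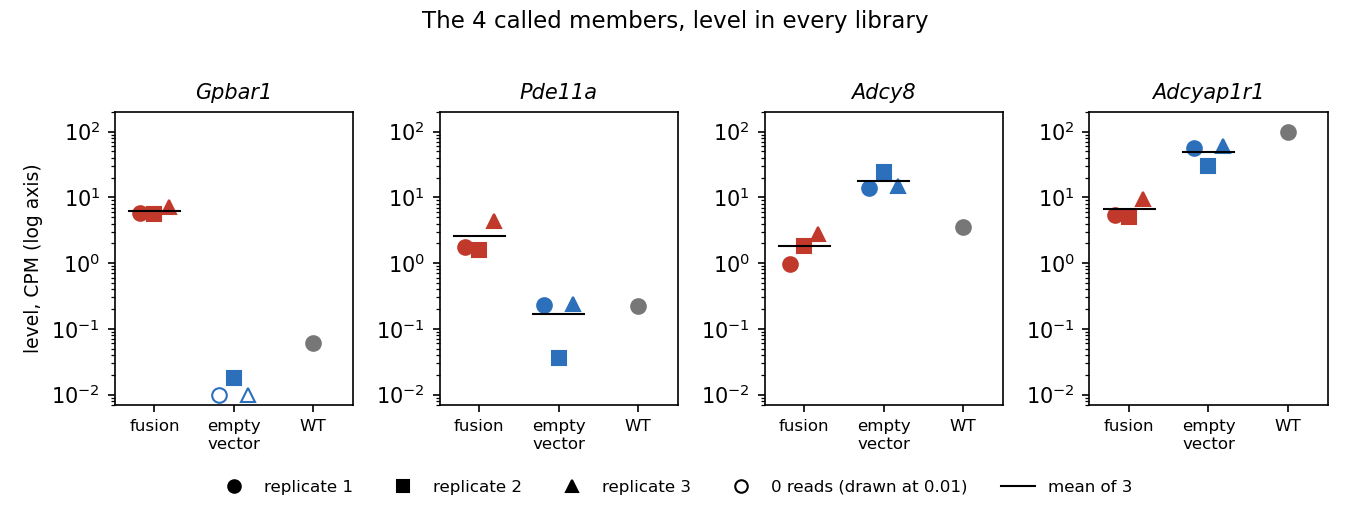
Level in CPM (log axis) of the 4 called members in each library, by group; symbols mark the replicate, black bars the mean of 3, and open symbols libraries with 0 reads, drawn at 0.01. No fusion library reaches into the range of the empty vector libraries for any of the 4, and for Adcy8 the WT library (3.57 CPM) lies near the fusion libraries rather than the empty vector ones.

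Adcy8 encodes a cyclase that calcium and calmodulin stimulate, best known from neurons. Its gene (ENSMUSG00000022376.7) lies at chr15:64697084-64922296 of GRCm38, on the minus strand. Its level was 0.953, 1.79 and 2.73 CPM in fusion replicates, against 14, 24.5 and 14.9 CPM in empty vector replicates and 3.57 CPM in the WT library. All fusion libraries were below all others, with the WT library much nearer to them than to the empty vector libraries. The means were 1.83 ± 0.889 CPM in fusion cells and 17.8 ± 5.83 CPM in empty vector cells (SD, n = 3 each), a log2 fold change of -3.31 (SE 0.44, edgeR adjusted p = 0.0086). The call held in all 6 fits that left out 1 library (adjusted p 0.0072 to 0.049). The neuronal and neuroendocrine marker list is given here because Adcy8 is a neuronal cyclase. It had 2 of 6 tested genes called higher in fusion cells, beside 1.69% of all tested genes. Of the 6, 4 were fitted higher and 2 lower. The list summed to 48.1 to 56.3 CPM in fusion libraries, 43.2 to 51.8 CPM in empty vector libraries and 26.7 CPM in WT. In every library 6 of its 10 genes stayed under 1 CPM, 2 of them at 0. Its part in the result was not tested. In bulk RNA, fewer cells that express a gene and less RNA per cell cannot be told apart.

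Pde11a encodes a phosphodiesterase that takes both cAMP and cGMP. Its gene (ENSMUSG00000075270.10) lies at chr2:75989141-76338774 of GRCm38, on the minus strand. Its level was 1.73, 1.56 and 4.41 CPM in fusion replicates, against 0.234, 0.0358 and 0.241 CPM in empty vector replicates and 0.22 CPM in the WT library. The groups did not overlap, and fusion replicate 3 stood well above the other fusion libraries. The means were 2.57 ± 1.6 CPM in fusion cells and 0.17 ± 0.116 CPM in empty vector cells (SD, n = 3 each), a log2 fold change of 3.90 (SE 0.70, edgeR adjusted p = 0.032). The call was near the threshold. It held without fusion replicate 3 (adjusted p = 0.043) but not without fusion replicate 1 (0.058) or 2 (0.059), nor without empty vector replicate 1 (0.065), 2 (0.075) or 3 (0.056). With the replicate block the adjusted p was 0.0052.

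RefSeq promoter windows of GRCm38.p6, which run over 250 bases before to 50 after a gene's start, were found for 50 of the 63 members (91 windows, as a gene can have several starts). They are shown for the called members that have a window, beside 2 windows that hold a searched motif. The motifs were the full cAMP response element TGACGTCA, its short site TGACG, which the full element contains, and the core of the antioxidant response element TGACNNNGC, each on both strands. The first 3 windows, Gpbar1 (chr1:74278350-74278649, plus strand), Adcyap1r1 (chr6:55451728-55452027, plus strand) and Pde11a (chr2:76338889-76339188, minus strand), hold none of the 3 motifs. The Prkar1a window (chr11:109650699-109650998, plus strand) has capitals at a full cAMP response element that begins 49 bases before the start, and at a short site 187 bases before it. Abcc4 is no member but an exporter of cAMP described further on. The window printed for it (chr14:118706170-118706469, minus strand) has capitals at an antioxidant response element core, on the opposite strand, 25 bases before the start. Another Abcc4 window, not printed (chr14:118676882-118677181, minus strand), also holds such a core, on the strand of the gene, 23 bases before its start.
Gpbar1: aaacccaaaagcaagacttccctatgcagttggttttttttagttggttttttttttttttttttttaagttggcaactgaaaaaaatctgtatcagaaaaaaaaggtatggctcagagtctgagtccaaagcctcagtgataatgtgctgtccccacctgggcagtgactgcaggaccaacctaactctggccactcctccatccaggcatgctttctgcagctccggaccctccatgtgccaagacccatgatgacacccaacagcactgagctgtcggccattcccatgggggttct
Adcyap1r1: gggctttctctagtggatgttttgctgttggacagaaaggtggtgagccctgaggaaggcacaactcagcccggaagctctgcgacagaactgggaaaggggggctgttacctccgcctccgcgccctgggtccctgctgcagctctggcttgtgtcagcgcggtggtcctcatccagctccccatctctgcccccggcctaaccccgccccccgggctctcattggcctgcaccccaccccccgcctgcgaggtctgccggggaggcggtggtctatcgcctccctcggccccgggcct
Pde11a: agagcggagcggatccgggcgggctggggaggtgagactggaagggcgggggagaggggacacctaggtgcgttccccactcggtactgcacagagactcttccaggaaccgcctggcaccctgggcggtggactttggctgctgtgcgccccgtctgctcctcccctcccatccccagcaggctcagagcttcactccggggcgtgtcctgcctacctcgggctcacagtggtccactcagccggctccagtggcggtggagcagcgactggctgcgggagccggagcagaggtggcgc
Prkar1a: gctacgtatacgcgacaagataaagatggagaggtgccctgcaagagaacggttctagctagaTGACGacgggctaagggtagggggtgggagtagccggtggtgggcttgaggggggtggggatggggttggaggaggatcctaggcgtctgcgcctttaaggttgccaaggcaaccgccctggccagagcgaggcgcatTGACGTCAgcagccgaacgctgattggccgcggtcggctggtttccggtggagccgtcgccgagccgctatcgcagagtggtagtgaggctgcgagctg
Abcc4: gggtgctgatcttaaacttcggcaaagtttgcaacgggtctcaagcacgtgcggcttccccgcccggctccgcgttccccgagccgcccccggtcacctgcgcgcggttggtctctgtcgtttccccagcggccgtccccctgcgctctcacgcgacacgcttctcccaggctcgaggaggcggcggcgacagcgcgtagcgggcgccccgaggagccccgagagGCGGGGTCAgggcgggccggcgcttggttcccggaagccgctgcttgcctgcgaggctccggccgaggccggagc
Over all members the full element stood in 2 of 91 windows, both of Prkar1a and overlapping each other, and in 1.79% of all 32851 windows. The short site stood in 23.1% of the members' windows and in 20.8% of all windows. The antioxidant response element core stood in 9.89% of the members' windows and in 12.4% of all windows. Counted per gene with any window that holds it, the order of the core turns: 9 of the 50 matched members had it, a share above the 14.0% of all genes. For the short site these were 17 of 50 members (34.0%) and 23.0% of all genes. Genes with several windows count once here, so a gene with more windows has more chances of a match. The 50 matched members have 91 windows, while all 27025 genes have 32851, so members have more windows per gene. No test was made of these shares.

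Among the other receptor and G protein members, the inhibitory alpha subunit gene Gnai1 differed most between the groups. Its level was 5.35, 4.61 and 8.75 CPM in fusion replicates, against 0.752, 0.555 and 1.95 CPM in empty vector replicates and 0.461 CPM in the WT library. Every fusion library was above every control library. The log2 fold change was 2.53 (SE 0.52) with an edgeR adjusted p of 0.055, just above the threshold of 0.05, and with the replicate block it rose by 2.66 (adjusted p = 0.0021). Of the 6 fits without the block that left out 1 library, only 1 called Gnai1 (adjusted p 0.013 to 0.17). That fit left out empty vector replicate 3, whose value was the highest of its group. The stimulatory alpha subunit gene Gnas stood at 135, 157 and 119 CPM in fusion replicates, against 119, 118 and 87.4 CPM in empty vector replicates and 127 CPM in WT. Each fusion library was above the empty vector library of its number, though the groups overlapped, and the log2 fold change of 0.34 was called with the block (adjusted p = 0.045) and not without it (0.71). Gnas shares exon bases with Nespas and Gm20721 on the other strand, and no strand setting is given, so reads of these genes cannot be told apart.

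The bulk of the inhibitory subunits lay in the other two genes. Gnai3 was the most abundant member of the class per length, at 127 CPM per kb in fusion cells, 120 in empty vector cells and 146 in the WT library. The log2 fold change was 0.07 (adjusted p = 0.99, block 0.54). Gnai2 stood at 283, 290 and 242 CPM in fusion replicates, against 238, 241 and 220 CPM in empty vector replicates and 350 CPM in WT. All fusion libraries were above all empty vector libraries by a small step, with a log2 fold change of 0.22 (adjusted p = 0.85, block 0.11). Gnai1 remained the least abundant of the 3 in fusion cells, at 1.99 CPM per kb, against 0.346 in empty vector cells and 0.147 in WT.

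All 7 tested adenylyl cyclases were fitted lower in fusion cells, with a median log2 fold change of -0.45, beside 0.01 over all tested genes, but 1 of them passed the test without the block and 2 with it. Adcy6, which calcium inhibits, and Adcy7, which G protein beta-gamma subunits can stimulate, together held 88.4 to 91.1% of the summed cyclase level per length in fusion libraries, 83.3 to 87.5% in empty vector libraries and 90.7% in WT. Adcy7 stood at 63.4, 62.6 and 60.4 CPM in fusion replicates, against 116, 92.5 and 81.6 CPM in empty vector replicates and 172 CPM in the WT library. The fusion libraries were close together and below all others. Its log2 fold change was -0.64 (SE 0.2, adjusted p = 0.21), and with the block it fell by 0.63 on the log2 scale (adjusted p = 0.014). Adcy6 stood at 90.2, 131 and 63.1 CPM in fusion replicates, against 108, 142 and 68.3 CPM in empty vector replicates and 91.2 CPM in WT. Its values followed the replicate number more than the group, and its log2 fold change of -0.16 was not called (adjusted p = 0.98, block 0.22). This sign turned when fusion replicate 3 (0.07) or empty vector replicate 2 (0.11) was left out. Adcy3, Adcy1, Adcy4 and Adcy9, fitted between -0.27 and -0.58, were called in neither fit.

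Summed over the 10 cyclase genes, the level per length was 24.9, 31.9 and 20.7 CPM per kb in fusion replicates, against 37.9, 41.3 and 26.6 in empty vector replicates and 42.9 in the WT library. Each fusion library was below the empty vector library of its number, and the ranges overlapped. Adcy8 made up 0.469, 0.691 and 1.62% of that sum in fusion replicates, against 4.52, 7.27 and 6.87% in empty vector replicates and 1.02% in WT. Adcy8 was thus a small part of the cyclase transcripts in every library. Adcy10, the bicarbonate-sensitive soluble cyclase, and Adcy5 had at most 0.0668 and 0.16 CPM in any library and were not tested.

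**Figure D3:**
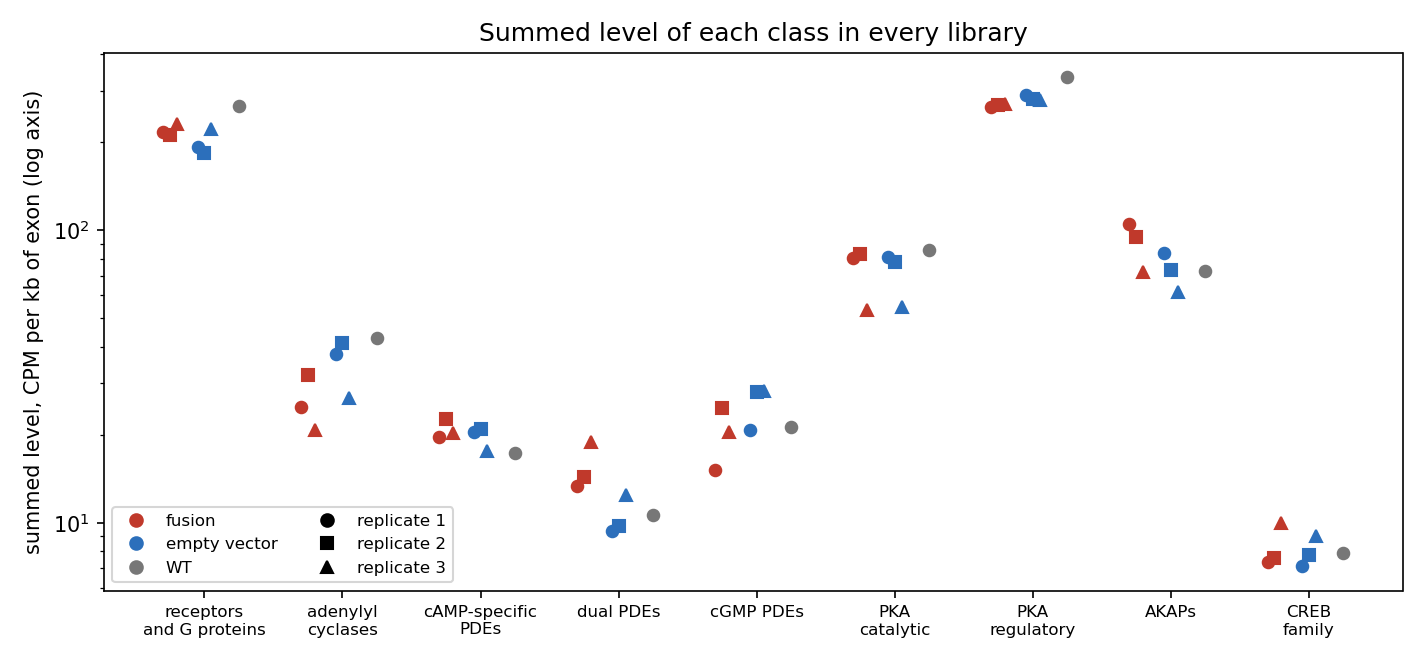
Level summed over each class (CPM per kb of exon, log axis) in each library; colours mark the group and symbols the replicate. Phosphodiesterases of both substrates lie at 13.4 to 18.9 in fusion libraries and 9.34 to 12.4 in empty vector libraries, while the catalytic subunits of protein kinase A separate by replicate number, with both libraries numbered 3 lowest.

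Of the 7 tested cAMP-specific phosphodiesterases, none was called without the block and Pde8b was called with it. Pde8b, a high-affinity enzyme, stood at 3.3, 4.71 and 3.7 CPM in fusion replicates, against 0.802, 0.806 and 1.9 CPM in empty vector replicates and 4.83 CPM in the WT library. The fusion libraries were above all empty vector libraries and below WT. Its log2 fold change was 1.75 (SE 0.41, adjusted p = 0.094), and with the block it rose by 1.84 (adjusted p = 0.02). Of the 6 fits without the block that left out 1 library, only 1 called Pde8b (adjusted p 0.021 to 0.33). That fit left out empty vector replicate 3, whose value was the highest of its group. Its paralog Pde8a stood at 25.1, 25.8 and 24.8 CPM in fusion replicates, against 19.8, 15.1 and 9.07 CPM in empty vector replicates and 7.9 CPM in WT. Here too the groups did not overlap, but the log2 fold change of 0.78 (SE 0.29) was called in neither fit (adjusted p = 0.32, block 0.064). Pde7a was the most abundant enzyme of the class per length, at 7.1 CPM per kb in fusion cells, 8.7 in empty vector cells and 6.76 in WT. Its level was 48.6, 58.6 and 57.9 CPM in fusion replicates, against 60, 72.4 and 69.8 CPM in empty vector replicates, without overlap and with a log2 fold change of -0.29 (adjusted p = 0.74, block 0.054). Pde4a, Pde4b and Pde4d, targets of rolipram, were fitted at -0.11, -0.31 and 0.24 and were called in neither fit, and neither was Pde7b.

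Among the phosphodiesterases that take both cyclic nucleotides, Pde3b, which cGMP inhibits and insulin signalling activates, was the most abundant per length, at 11.3 CPM per kb in fusion cells, 6.6 in empty vector cells and 4.44 in WT. Its level was 86.1, 90.3 and 132 CPM in fusion replicates, against 51.5, 50 and 78.9 CPM in empty vector replicates and 40.5 CPM in WT. The groups did not overlap, and replicate 3 was the highest of each. The means were 103 ± 25.4 CPM in fusion cells and 60.1 ± 16.3 CPM in empty vector cells (SD, n = 3 each). The log2 fold change was 0.77 (SE 0.27, adjusted p = 0.28), and with the block Pde3b rose by 0.78 (adjusted p = 0.0025). The gain of Pde3b in mean level per length was larger than the whole level of Pde11a in fusion cells, 0.493 CPM per kb. Pde10a, Pde1a and Pde1b were called in neither fit, and Pde1c and Pde3a were not tested. Summed over the 15 phosphodiesterases that take cAMP, the level per length was 33, 36.9 and 39.2 CPM per kb in fusion replicates, against 29.7, 30.8 and 30.1 in empty vector replicates and 27.9 in WT, without overlap. This sum was not tested, since its genes were chosen with results known. Pde2a could not be matched by identifier and is not analysed here.

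Of the 5 tested genes of the cGMP phosphodiesterase class, none was called without the block and 3 with it. Pde5a, the target of sildenafil, stood at 5.2, 5.64 and 8.04 CPM in fusion replicates, against 2.01, 2.11 and 3.22 CPM in empty vector replicates and 1.62 CPM in WT. All fusion libraries were the higher ones. Its log2 fold change was 1.36 (SE 0.32, adjusted p = 0.087), and with the block it rose by 1.37 (adjusted p = 0.0052). Pde6a, a catalytic subunit of the rod photoreceptor enzyme, had 0.267, 0.641 and 0.973 CPM in fusion replicates, against 0.0501, 0 and 0.12 CPM in empty vector replicates and 0.0601 CPM in WT. It was low throughout, without overlap, and was called higher with the block (log2 fold change 3.48, adjusted p = 0.032) and not without it (3.47, adjusted p = 0.11). Pde6d, which carries prenylated proteins rather than breaking down a nucleotide, was the most abundant of the class. It stood at 31.4, 51.6 and 41.7 CPM in fusion replicates, against 44.5, 60.4 and 60.8 CPM in empty vector replicates and 45.5 CPM in WT. Each fusion library was below the empty vector library of its number, the groups overlapped, and Pde6d fell by 0.42 on the log2 scale with the block (adjusted p = 0.037, without it 0.69). Pde9a and Pde6h were called in neither fit.

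None of the 6 protein kinase A subunits was called in either fit. Prkar1a, the type I alpha regulatory subunit, was the most abundant, at 147 CPM per kb in fusion cells, 176 in empty vector cells and 189 in the WT library. Its level was 599, 610 and 696 CPM in fusion replicates, against 772, 720 and 785 CPM in empty vector replicates and 818 CPM in WT. All fusion libraries were below all others, with a log2 fold change of -0.26 (SE 0.19, adjusted p = 0.79, block 0.085). Prkar2b followed at 103 CPM per kb in fusion cells, 91.9 in empty vector cells and 113 in WT. The catalytic subunit genes Prkaca and Prkacb together stood at 80.1, 82.9 and 53.3 CPM per kb in fusion replicates, against 80.9, 78 and 54.8 in empty vector replicates and 85.5 in WT. The replicate number and not the group set these apart. Regulatory over catalytic transcripts per length came to 3.28, 3.22 and 5.06 in fusion replicates, against 3.59, 3.59 and 5.1 in empty vector replicates and 3.89 in WT, with both libraries numbered 3 higher than the rest.

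Anchoring proteins split evenly, with 7 of 14 tested genes fitted higher and 7 lower and a median log2 fold change of 0.00, and none was called without the block. Akap12 (gravin), which ties the kinase to the plasma membrane and had the highest mean level per length of the class over the 7 libraries, stood at 220, 209 and 118 CPM in fusion replicates, against 96.8, 82.7 and 42.2 CPM in empty vector replicates and 74.7 CPM in WT. The groups did not overlap, and each fusion library was far above the empty vector library of its number. The means were 182 ± 55.7 CPM in fusion cells and 73.9 ± 28.3 CPM in empty vector cells (SD, n = 3 each). The log2 fold change was 1.30 (SE 0.36, adjusted p = 0.15), and with the block Akap12 rose by 1.33 (adjusted p = 0.00074). Akap17b stood at 14, 25.5 and 18 CPM in fusion replicates, against 8.09, 10.7 and 8.23 CPM in empty vector replicates and 8.16 CPM in WT. No empty vector library reached the fusion range, and Akap17b rose by 1.06 on the log2 scale with the block (adjusted p = 0.0059, without it 0.12). Akap12 came first in fusion cells, at 28.2 CPM per kb, but in empty vector cells Akap11 and Akap1 stood above it, at 15.2 and 12.4 CPM per kb beside 11.4 for Akap12. In the WT library Akap11, Akap1 and Akap8 stood above it, at 15.3, 14.3 and 13.4 CPM per kb beside 11.6. These 3 genes were called in neither fit. Reads of Akap2 may be set aside as ambiguous, because most of its exon bases lie in Pakap.

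**Figure D4:**
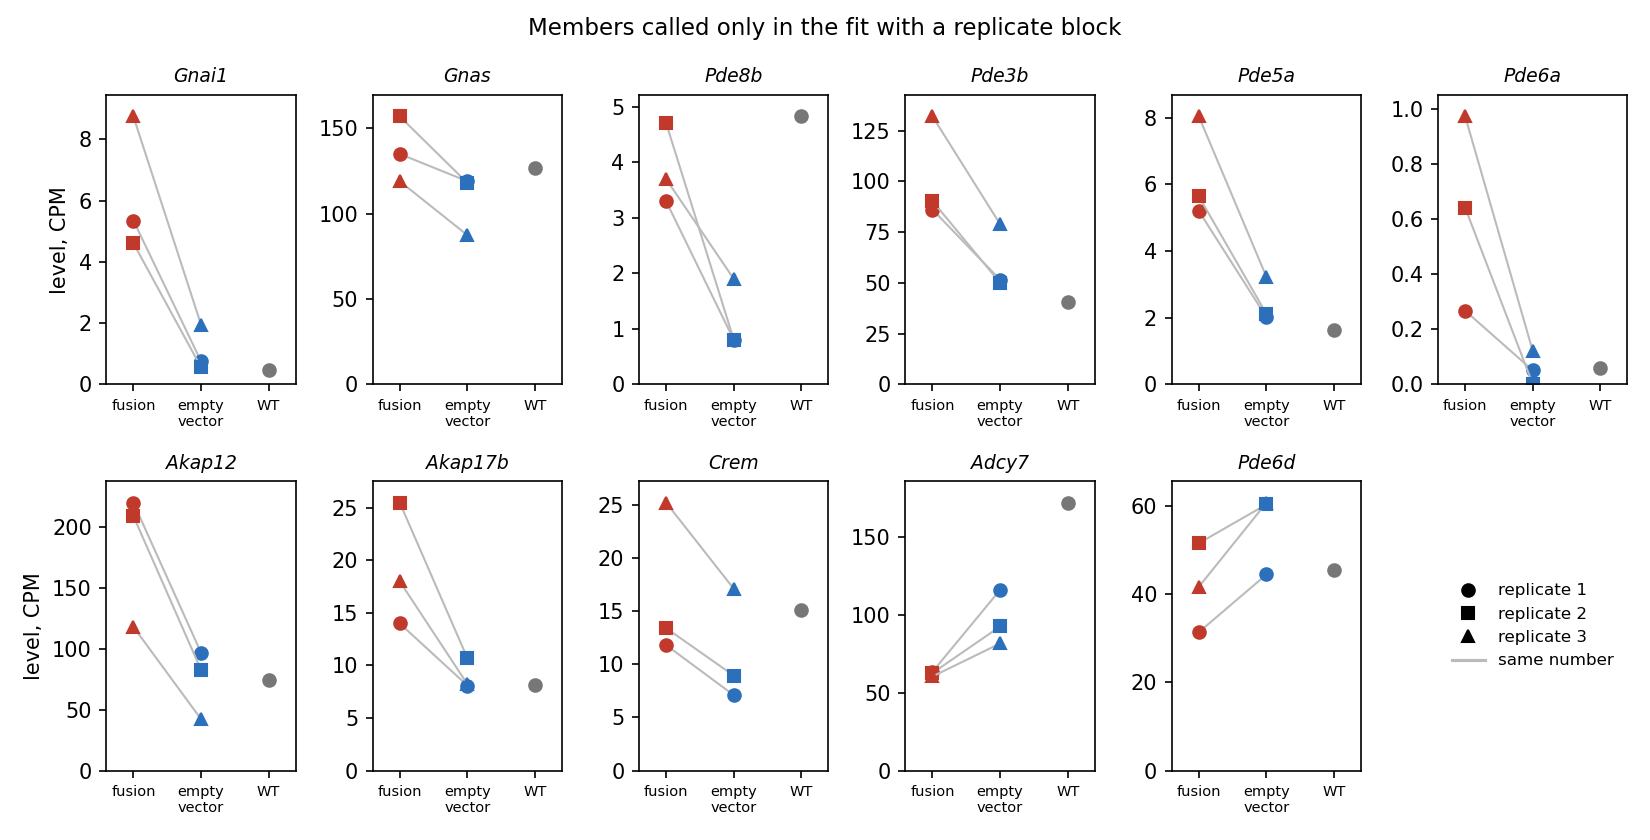
Level in CPM (linear axes from 0) of the 11 members called only with the replicate block, by group; grey lines join libraries of the same replicate number. All 3 lines run down from fusion to empty vector in 9 of the members and up in Adcy7 and Pde6d.

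In the CREB family, Creb1 stood at 73.2, 73 and 78.6 CPM in fusion replicates, against 81.2, 85.7 and 84.1 CPM in empty vector replicates and 73.2 CPM in WT. Fusion libraries lay below empty vector libraries by a small step, with a log2 fold change of -0.16 (SE 0.17, adjusted p = 0.92, block 0.22). Crem, whose products include both activators and the repressor ICER, stood at 11.8, 13.4 and 25.2 CPM in fusion replicates, against 7.09, 8.93 and 17.1 CPM in empty vector replicates and 15.1 CPM in WT. Each fusion library was above the empty vector library of its number, the groups overlapped, and Crem rose by 0.63 on the log2 scale with the block (adjusted p = 0.018, without it 0.77). Counts per gene do not separate the activator and repressor transcripts.

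The replicate number set members apart as it did other genes. Both libraries numbered 3 were the highest of their own group for 12 of the 52 tested members (23.1%, beside 26.0% of all tested genes) and the lowest for 20 (38.5%, beside 27.8%). Without both of these libraries, 7 members were called without the block: Gpbar1, Gnai1, Akap12, Pde7b and Pde8b higher, Adcy8 and Adcyap1r1 lower, where 1.96% of all tested genes were called. Pde11a was then no longer called (adjusted p = 0.091). Pde7b stood at 0.838, 0.861 and 0.0748 CPM in fusion replicates, against 0.0668, 0.107 and 0.457 CPM in empty vector replicates. Its libraries numbered 3, left out of that fit, thus went the other way. With the block, 12 members were called without both libraries numbered 1 (9.20% of all tested genes), 7 without those numbered 2 (2.46%) and 22 without those numbered 3 (19.0%), alternatives chosen after seeing the data. With the block, the members' counts thus moved with those of all genes. Without the block they did not: 7 members were called without both libraries numbered 3, beside 4 in the full fit. Over all tested genes the share went from 2.04% to 1.96%.

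Other genes of the pathway were read from lists fixed for this report with earlier results known. The CREB target list also holds the members Pde4b, Pde4d and Crem, and Rgs2 and Sik1 each stand in 2 of the lists, so their counts are not separate. No gene was called without the block among 11 G proteins and modulators, 9 other effectors and inhibitors of the kinase, 13 partners and coactivators of CREB and 18 CREB targets. With the block these lists had 0 higher and 2 lower, 1 higher and 2 lower, 2 higher and 0 lower, and 2 higher and 3 lower. Beside these stand 13.1% of all tested genes called with the block (7.63% higher and 5.5% lower). The CREB targets had a median log2 fold change of -0.20, beside 0.01 over all tested genes.

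Both exporters of cyclic nucleotides were higher in fusion cells. Abcc4, which encodes MRP4, stood at 254, 303 and 156 CPM in fusion replicates, against 43.8, 38.4 and 18 CPM in empty vector replicates and 32.3 CPM in the WT library. All fusion libraries were far above all others, and the means were 238 ± 75 CPM in fusion cells and 33.4 ± 13.6 CPM in empty vector cells (SD, n = 3 each). It rose by 2.83 on the log2 scale (SE 0.39, edgeR adjusted p = 0.011), a call that held in all 6 fits that left out 1 library (highest adjusted p 0.049). Abcc5 stood at 164, 177 and 143 CPM in fusion replicates, against 94.8, 100 and 68.1 CPM in empty vector replicates and 85.8 CPM in WT. Its log2 fold change was 0.88 (SE 0.21, adjusted p = 0.1), and it was called with the block (0.89, adjusted p = 0.0026). The neuropeptide gene Vip, whose product acts on PAC1 weakly and on VPAC2 strongly, and Vipr2, which encodes VPAC2, were named after their values were seen. Vip stood at 18.2, 56.7 and 106 CPM in fusion replicates, against 3.73, 10.6 and 30.9 CPM in empty vector replicates and 9.62 CPM in WT. It differed several-fold between numbers within each group and was called with the block (log2 fold change 2.15, adjusted p = 0.0009) and not without it (adjusted p = 0.4). Vipr2 stood at 6.5, 14.2 and 4.45 CPM in fusion replicates, against 1.2, 2.26 and 1.8 CPM in empty vector replicates and 1.84 CPM in WT, without overlap (2.26, adjusted p = 0.06, with the block 2.16, adjusted p = 0.009).

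**Figure D5:**
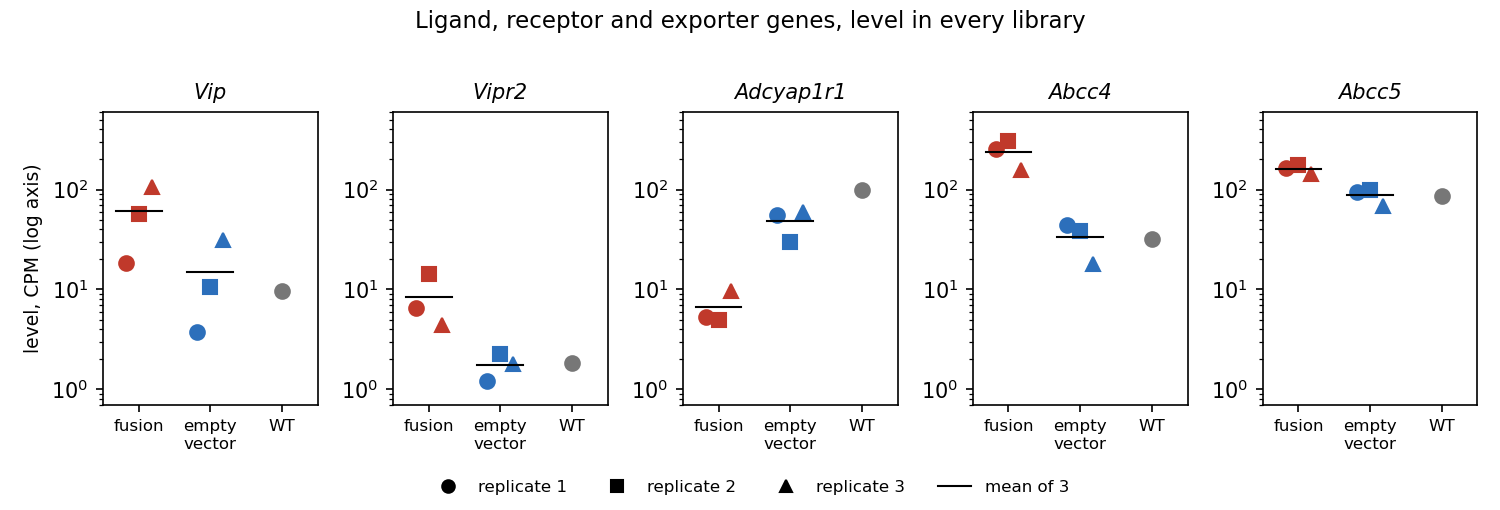
Level in CPM (log axis) of the ligand gene Vip, the receptor genes Vipr2 and Adcyap1r1 and the exporter genes Abcc4 and Abcc5 in each library; symbols mark the replicate and black bars the mean of 3. Fusion libraries lie above empty vector libraries for Vipr2, Abcc4 and Abcc5, below them for Adcyap1r1, and overlap with them for Vip.

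The single WT library was compared in a fit of all 7 libraries, in which the spread within the other groups had to stand for its own. Both of these comparisons share libraries with the first, so their values stand side by side and are no separate evidence. Between fusion and WT, Gpbar1 was called higher and Adcyap1r1 lower, 2 of the 52 tested members, beside 0.436% of all tested genes (0.341% higher and 0.0956% lower). For Gpbar1 the pooled ratio of fusion to WT was 104 (95% counting interval 35.6 to 507, adjusted p = 0.03), and for Adcyap1r1 the log2 fold change was -3.93 (adjusted p = 0.028). Both calls were lost without fusion replicate 1 (adjusted p = 0.069 for each gene) or without fusion replicate 2 (0.081 for each), where the whole comparison kept 16 and 1 called genes of 73. Pde11a had a log2 fold change of 3.51 (adjusted p = 0.34) and Adcy8 one of -0.99 (adjusted p = 0.82).

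Between empty vector and WT, edgeR called no gene, so no member (0.0% of all tested genes), while DESeq2 called 77 genes and among the members Adcy8. At an unadjusted p under 0.05 there were 6 members (Gnai2, Gpbar1, Adcy7, Adcy8, Pde8b and Pde1a), or 11.5% of those tested, and 746 genes, or 4.46%. Gpbar1 had only 0, 1 and 0 reads in empty vector replicates and 3 in WT. It passed the filter on low counts through its fusion reads, so its place among the 6 carries little weight. Adcy8 was higher in empty vector cells, with a log2 fold change of 2.32 (unadjusted p = 0.0071, adjusted p = 0.81, in DESeq2 0.018). Pde8b had a log2 fold change of -2.05 (unadjusted p = 0.004), so its fusion level of 3.9 ± 0.725 CPM lay between 1.17 ± 0.633 CPM in empty vector cells (SD, n = 3 each) and 4.83 CPM in WT. Adcy7 and Adcyap1r1 had log2 fold changes of -0.83 and -1.05 (unadjusted p = 0.014 and 0.051), and both were lowest in fusion cells and highest in WT. The WT library stood above all 6 others for 10 tested members, beside 12.4% of all tested genes, and below all 6 for 7 members, beside 11.8%. With 1 WT library, a difference of this library and a difference of untransduced cells cannot be told apart.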

How the data were processed

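Gene counts of 7 libraries (3 fusion, 3 empty vector, 1 WT) were used. The deposited values are raw counts of reads per gene, 1 table per lane (12 in all), which the authors made with STAR and HTSeq on GRCm38, per the submitters' processing notes. Their versions, the annotation release and the use of strand in counting were not given in the sources used, so reads of the 14 members that share exon bases with a gene on the other strand cannot be told apart from it. Lanes of a library were summed, and rows that name no gene (5.726 to 6.927% of reads outside genes, 1.222 to 1.479% ambiguous, 36.1 to 45.32% with several alignments) stayed out. Positions and merged exon lengths come from GENCODE M21.

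Fusion was compared with empty vector in 6 libraries by edgeR 4.0.16 (R 4.3.3): TMM, filterByExpr with a minimum count of 10, robust quasi-likelihood test, Benjamini-Hochberg adjustment at 0.05 over 16731 genes. WT was compared in a fit of all 7 libraries. CPM use TMM factors over 7 libraries (0.944 to 1.037). Ratios pool the reads of a group and carry exact binomial 95% intervals, and limits for 0 reads use 3 counts; both cover counting error only. Levels between genes are given as CPM per kb of merged exon. Fusion and empty vector libraries carry the same replicate numbers. Across genes, a library's deviation from its group mean went with that of its numbered partner (r = 0.659, 0.63 and 0.61), while libraries with unlike numbers gave r = -0.53 to -0.0474. The latter values add little to this check. Deviations from a group mean sum to 0, so positive same-number values push the others below 0. On this check alone, without a label that names a day or batch, the numbers count as pairs. Fits with a replicate block, DESeq2 1.42.0, DESeq2 size factors in edgeR, no filter on low counts and fits without single libraries were alternatives. The edgeR fit of fusion against empty vector without the block was run once on simulated counts with 200 seeded genes. These counts had less spread than the data and no replicate effect, and the other fits were not run on them.

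The members and lists were chosen with earlier results of these data known. Named were members called in any comparison or with the block, the most abundant and the lowest-p member of each class, Gpbar1, Adcyap1r1, Adcy8, the construct genes, and list genes past the threshold. Some results of the marker and receptor lists are not reported here.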

Additional observations from a re-analysis of the deposited data

How the results depend on the processing

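Fusion against empty vector gave 341 called genes, 922 with DESeq2, 530 without the filter on low counts and 2196 with the replicate block. With the block, 1537 genes were called without both libraries numbered 1 and 3200 without those numbered 3. Leaving out 1 library gave 133 to 384 (133 without empty vector replicate 2, 148 without fusion replicate 2, 196 without fusion replicate 1). Of the members, 4 were called, 10 with DESeq2, 7 without the filter, 15 with the block, 7 without both libraries numbered 3, and 3 to 5 with 1 library left out. With the block, 12, 7 and 22 members were called without both libraries numbered 1, 2 and 3. Fusion against WT gave 73 genes and 2 members, 498 and 7 with DESeq2, 245 and 4 without the filter, and 1 to 84 genes and 0 to 2 members with 1 fusion library left out. Empty vector against WT gave 0 genes and 0 members, 77 and 1 with DESeq2, and 15 genes without the filter. DESeq2 size factors in edgeR and the fit of all 7 libraries called the same 4 members as reported.

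Signs turned in genes whose fold change was not called. With 1 library left out, log2 fold changes of fusion over empty vector ran between -0.46 and 0.11 for Adcy6 (0.07 without fusion replicate 3, 0.11 when empty vector replicate 2 was left out) and between -0.03 and 0.24 for Gnai3. Those of fusion over WT ran between -0.24 and 0.28 for Adcy6, -0.00 and 0.06 for Creb1, -0.27 and 0.34 for Crem, and -0.31 and 0.01 for Pde6d. Those of empty vector over WT ran between -0.03 and 0.45 for Adcy6, -0.72 and 0.13 for Pde11a, -1.15 and 0.45 for Pde6a, -0.17 and 0.35 for Abcc4, and -0.24 and 0.27 for Akap12, which came to 0.01 without the filter. The cause was not tested. Fusion replicate 3 is the shallowest library, and 4 members had no read in any library.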

Other observations

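Some CREB target genes had a low unadjusted p between empty vector cells and the WT library, and the 3 given here were named after their values were seen. Areg, an EGF family ligand, had 3.73, 5.27 and 8.68 CPM in fusion replicates and 3.43, 5.34 and 8.66 CPM in empty vector replicates, against 0.802 CPM in the WT library. Egr1, an immediate early transcription factor gene, stood at 120, 156 and 212 CPM in fusion replicates and 225, 236 and 273 CPM in empty vector replicates, against 89.3 CPM in WT. It was also lower in fusion than in empty vector cells, without overlap, and was called with the replicate block (log2 fold change -0.62, adjusted p = 0.02) and not without it (adjusted p = 0.42). Dusp1, a phosphatase gene of the same list, was lower in empty vector cells than in WT, with 75.5, 107 and 52.6 CPM in fusion replicates and 51.2, 48.6 and 49.3 CPM in empty vector replicates, against 115 CPM in WT. Between empty vector and WT, the edgeR log2 fold change was 2.85 for Areg, 1.45 for Egr1 and -1.21 for Dusp1 (unadjusted p = 0.0049, 0.0046 and 0.0088), and none of the 18 tested targets passed the adjusted threshold. Fos and Junb, higher in empty vector cells, also had an unadjusted edgeR p under 0.05 (0.049 and 0.033). Over all tested genes 4.46% had one. Of the 18 tested targets, 12 were fitted higher in empty vector cells than in WT and 6 lower.

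Rgs2, whose product holds back G protein signalling, had 8.44, 13.8 and 28.6 CPM in fusion replicates, against 27.1, 30.5 and 57.3 CPM in empty vector replicates and 55.7 CPM in WT. Each fusion library was below the empty vector library of its number, and the gene was called lower with the replicate block (log2 fold change -1.27, adjusted p = 0.0049) and not without it (-1.18, adjusted p = 0.39). Calcrl, which encodes a receptor for adrenomedullin and CGRP, had 10.3, 10.3 and 24.4 CPM in fusion replicates, against 35.7, 34.1 and 41.8 CPM in empty vector replicates and 57.9 CPM in WT, without overlap. It was called lower with the block (log2 fold change -1.43, adjusted p = 0.019) and not without it (-1.31, adjusted p = 0.14).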
